A study of Solanum tuberosum with 4 samples.

Results

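On 4 arrays that each set leaf RNA of salt-treated potato plants against leaf RNA of water-treated plants, 133 cDNA clones gave ratios that differed between replicates 1 and 2 on one side and replicates 3 and 4 on the other. They were taken from the 7099 clones with a value on all 4 arrays, out of 11507 clones in the deposited table. They were chosen by the measured ratios themselves, through a pair of conditions. The mean of replicates 1 and 2 had to differ from the mean of replicates 3 and 4 by at least 0.8 on the log2 scale (1.74-fold), and the mean over all 4 arrays had to lie within 1.5-fold of no change. Their pair differences and means are therefore given as a description, without a test.

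The plants were of the cultivar Désirée, a red-skinned potato. They were multiplied in vitro, moved to pots of soil and sand, and watered from day 0 with 75 mL of either 150 mM NaCl or tap water. The first and the second leaf were taken on day 3. The labels name 4 biological replicates per treatment and 2 sets of plants, without saying which replicate belongs to which set. Control and salt-treated plants shared the cultivar, the potting in soil and sand and the culture room. The salt RNA carried the dye Cy3 on replicates 1 and 3 and Cy5 on replicates 2 and 4, so each pair held both dye orientations.

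Salt in the soil makes water harder to take up, and sodium and chloride then build up in the leaves. Leaves are known to answer the water deficit with the hormone abscisic acid, compatible solutes and changes in photosynthesis and growth, and the ions with transporters that keep sodium out of the cytoplasm. Potato is counted among the moderately salt-sensitive crops. A ratio on such an array compares a pair of RNA samples, so a ratio that moves between arrays can move through the salt RNA or through the control RNA, and these cannot be told apart here. The potato gene table used for names holds 0 of the 11507 IDs, so clones are given by ID, with no gene name or function.

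Signs need one more remark. The deposited ratios were taken as log2 values turned to 1 common direction, and the numerator (not given in the sources used here) may be salt or control. A positive ratio means more of the transcript after salt in the first case and less in the second. A dye effect that is the same on all arrays cancels within each pair mean if the ratios were turned. If they were not turned, a common salt response would cancel there instead.

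Of the 133 clones, 98 had higher ratios on replicates 1 and 2 and 35 had higher ratios on replicates 3 and 4. In 121 of them the pair means had opposite signs, 92 with the higher mean on replicates 1 and 2 and 29 with it on replicates 3 and 4. The other 12 clones had pair means of the same sign, 6 on each side. The difference between pairs reached 2-fold in 60 clones and 3-fold in 9. Its median size was 0.96, against 0.18 over all 7099 clones. The SD within pairs, pooled over both pairs, had a median of 0.17 in the 133 clones and of 0.15 over all clones.

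**Figure D1:**
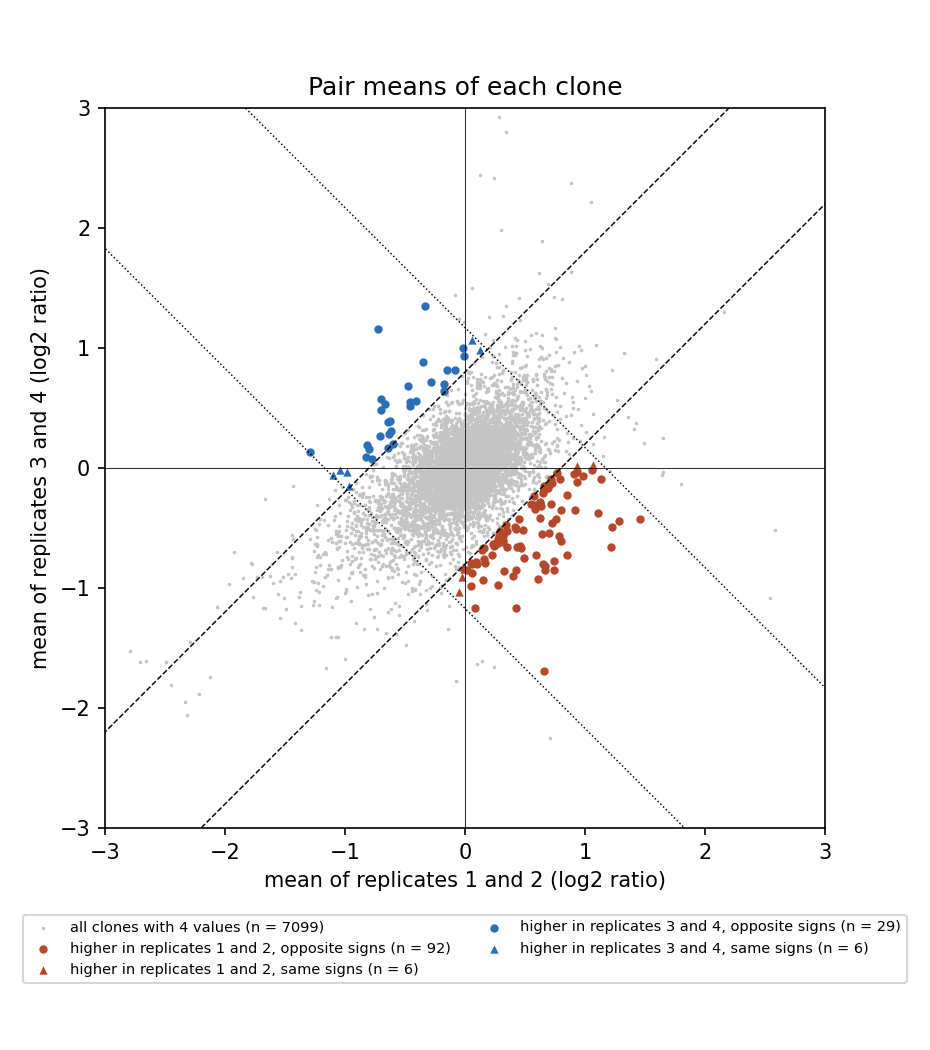
Mean log2 ratio of replicates 1 and 2 (horizontal axis) against that of replicates 3 and 4 (vertical axis) for each clone. Dashed lines mark a pair difference of 0.8 and dotted lines a mean of 1.5-fold in size over 4 arrays. Between the dotted lines, the 98 clones below the lower dashed line outnumber the 35 above the upper one, and 12 of the 133 lie in a quadrant where both means have 1 sign.

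The 92 clones that were positive on replicates 1 and 2 and negative on replicates 3 and 4 form the largest class. Their log2 ratios ranged from -0.25 to 1.86 with a median of 0.49 on replicate 1, and from -0.16 to 1.83 with a median of 0.53 on replicate 2. On replicate 3 they ranged from -1.60 to 0.21 with a median of -0.55, and on replicate 4 from -1.78 to 0.27 with a median of -0.52. The limit on the mean favours pairs about equally far from 0, so nothing is read from these medians. Single clones could still be unequal: STMEW90 averaged 1.06 on replicates 1 and 2 and -0.01 on the other pair. In the 29 clones of the opposite order, the medians were -0.70 and -0.41 on replicates 1 and 2 and 0.38 and 0.66 on replicates 3 and 4.

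**Figure D2:**
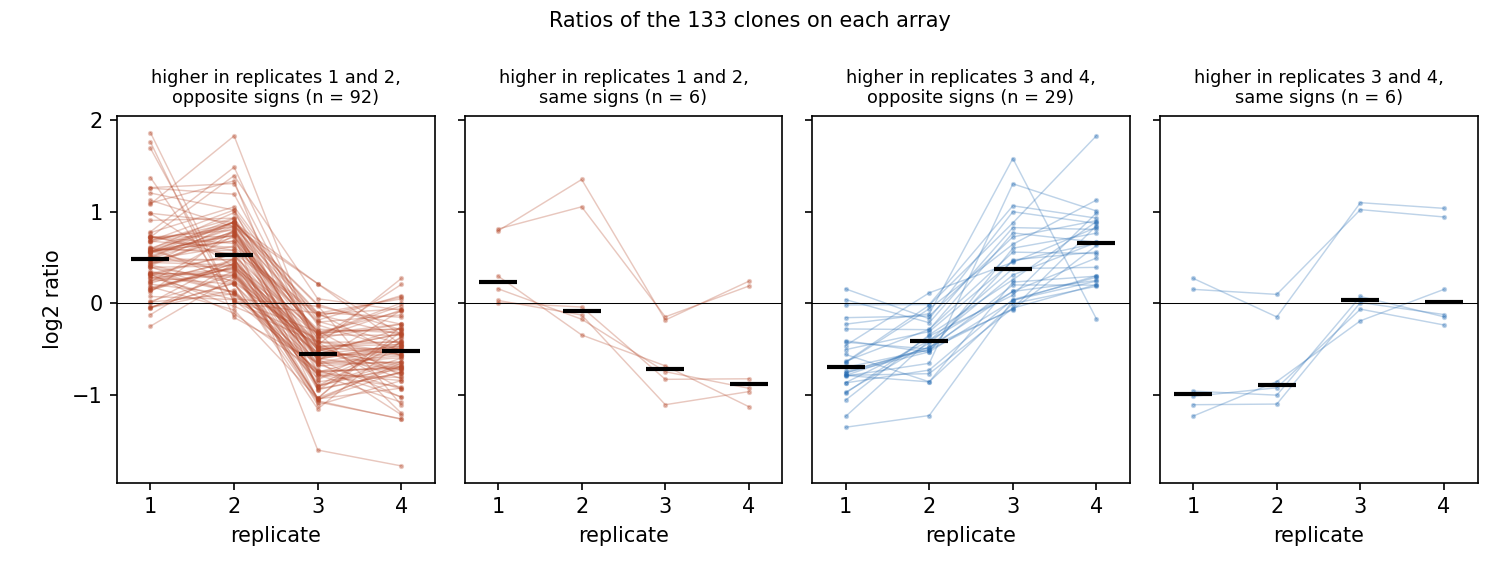
Log2 ratio (vertical axis) on each replicate (horizontal axis) of the 133 clones, in 4 panels by which pair is higher and by the signs of the pair means. Each thin line joins the values of 1 clone and black bars are medians. In the panel of 92 clones the medians are 0.49, 0.53, -0.55 and -0.52, and in the panel of 29 clones -0.70, -0.41, 0.38 and 0.66.

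Clone STMIP80 had the largest difference. Its log2 ratios were 0.57 and 0.74 on the first pair of arrays and -1.60 and -1.78 on the other. Both arrays of a pair agreed closely (pooled SD within pairs 0.12), while the pairs lay 2.35 apart, or 5.08-fold. The ratio was thus 1.58-fold in the positive direction on the one pair and 3.22-fold in the negative direction on the other.

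Clones STMEI79 and STMDI82 showed the narrowest spread within pairs among the largest differences. STMEI79 read 1.26 and 1.31 on replicates 1 and 2, and -0.47 and -0.42 on the other pair, a difference of 1.73 with a pooled SD within pairs of 0.037. STMDI82 read 1.26 and 1.19 against -0.49 and -0.50, a difference of 1.72 with an SD of 0.034. In both, the excursion on replicates 1 and 2 was the larger one. The same held for STMIX82 (1.08 and 1.83 against -0.51 and -0.33) and STMDZ44 (1.09 and 1.34 against -0.95 and -0.37), which differed by 1.88 and 1.87 but with more spread within pairs, 0.38 and 0.32.

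On the side higher in replicates 3 and 4, clone STMCR71 led with -0.79 and -0.66 on replicates 1 and 2, then 1.30 and 1.01 on the other pair. The pairs differed by 1.88 in size, or 3.68-fold. Clone STMCM44 read -1.35 and -1.23 against 0.03 and 0.24, so that nearly all of its 2.69-fold difference came from replicates 1 and 2. In STMIZ67 the ratios were -0.64 and -0.02 against 0.88 and 1.83. That clone had the widest spread within pairs of the 5 leading clones of its class, with a pooled SD of 0.57.

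Clones STMGL17 and STMJI39 complete the leading clones of this class. STMGL17 read -1.06 and -0.35 on replicates 1 and 2, then 0.26 and 0.89 on the other pair. STMJI39 read -0.65 and -0.06 against 0.64 and 1.13. In both, the array with salt in Cy5 lay above the array with salt in Cy3 within each pair. That was also so in STMIZ67 and STMCM44, and in 60 of all 133 clones (45.1%).

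**Figure D3:**
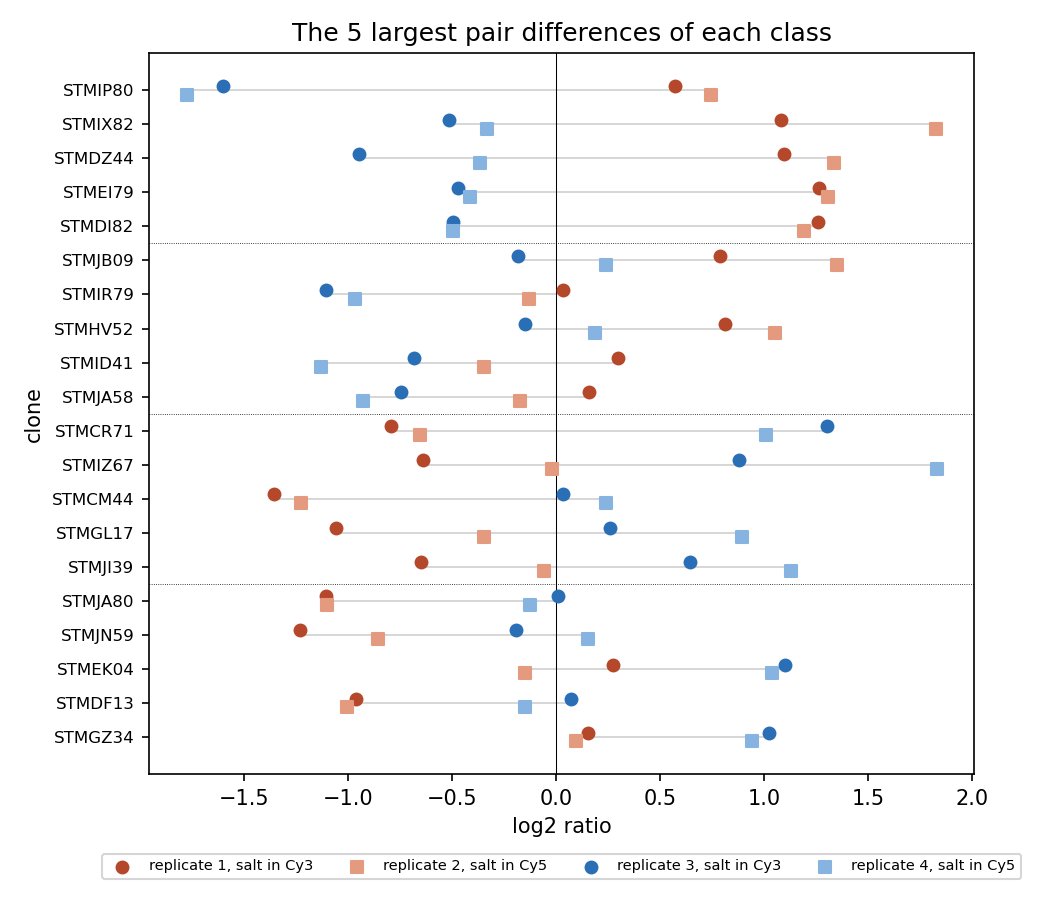
Log2 ratio on each array (horizontal axis) of the 5 clones with the largest pair difference in each of the 4 classes, divided by dotted lines. From top to bottom the classes are higher in replicates 1 and 2 with opposite and with same signs, then higher in replicates 3 and 4 with opposite and with same signs. Circles mark arrays with salt in Cy3 and squares arrays with salt in Cy5. The arrays of the pairs do not overlap in any of these 20 clones.

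Opposite signs of the pair means did not always mean a wide departure from 0 on both pairs. In 94 of the 133 clones (70.7%) every array lay on the side of its pair mean with the pairs on opposite sides of 0, which over all 7099 clones held for 11.6%. The rule favours such clones, so nothing is read from the gap between these shares. Both pair means lay at least 1.5-fold from 0 in only 12 clones, 11 of them higher in replicates 1 and 2. Besides STMIP80, STMDZ44 and STMCR71, these 12 included STMEP76 (0.68 and 1.02 against -0.74 and -0.71), STMIX33 (0.60 and 0.88 against -0.94 and -0.76) and STMGZ24 (0.56 and 0.92 against -0.91 and -0.64), which were picked after their values were seen. In these 3 clones the excursions on the 2 pairs were of similar size.

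In 54 clones (40.6%) 1 pair mean lay within 0.2 of 0. Such a mean does not show that both arrays of that pair were near 0: in STMJB31 it averaged -0.46 and 0.27. Replicates 1 and 2 were the pair near 0 in 26 of them and replicates 3 and 4 in 28. The rule used these pair means, so nothing is read from that split. The 12 clones with pair means of the same sign all belong here by the arithmetic of the rule. Among them, STMIR79 read 0.03 and -0.13 on replicates 1 and 2, then -1.11 and -0.96 on the other pair. STMJA80 had the reverse pattern, with -1.11 and -1.10 against 0.01 and -0.12. STMEK04 read 0.27 and -0.15 against 1.10 and 1.04, and STMGZ34 read 0.15 and 0.10 against 1.02 and 0.94. The departing pair of these 4 clones held 2 arrays that lay within 0.15 of each other.

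The other 8 clones with pair means of the same sign ranged from narrow to wide spread within pairs. STMEH26 was the narrowest of the 12, with 0.007 and -0.041 on replicates 1 and 2, then -0.83 and -0.82 on the other pair. STMJB09 read 0.79 and 1.35 against -0.18 and 0.24, STMHV52 0.81 and 1.05 against -0.15 and 0.19, STMID41 0.30 and -0.35 against -0.68 and -1.13, and STMJA58 0.16 and -0.17 against -0.75 and -0.93. These 5 clones were higher on replicates 1 and 2. Among those higher on replicates 3 and 4, STMHT34 read -1.02 and -0.92 against -0.06 and -0.24, STMJN59 -1.23 and -0.85 against -0.19 and 0.15, and STMDF13 -0.959 and -1.003 against 0.07 and -0.15.

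The limits of the rule fell within a continuous spread of values. Just inside the minimum difference of 0.8 lay STMCK04 at 0.8025, STMDH57 at -0.8025 and STMGL50 at 0.804. Just outside lay STMFB51 at -0.799, STMIX28 at -0.7965 and STMIW53 at -0.795. At the limit on the mean, STMJA80 at -0.5805, STMCM44 at -0.57575 and STMEK04 at 0.56425 were inside, and STMFA34 at 0.58925, STMHN16 at -0.5915 and STMGG17 at 0.59475 were outside.

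The share of clones higher on replicates 1 and 2 was larger among clones with larger differences. Among clones with a mean within 1.5-fold of no change, 51.6% of the 2872 clones with a difference of at least 0.2 were higher on replicates 1 and 2, and 51.6% of the 1030 with at least 0.4. The share was 58.1% of 344 clones at 0.6, 73.7% of 133 at 0.8, 71.7% of 60 at 1 and 80.6% of 31 at 1.2. Beyond the limit on the mean the order was the other way: 71 more clones had a difference of at least 0.8, of which 28 (39.4%) were higher on replicates 1 and 2 and 43 on replicates 3 and 4. With no limit on the mean, 126 of 204 clones (61.8%) were higher on replicates 1 and 2. These are counts of clones, which may include several clones of 1 gene, and the difference between the groups was not tested.

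Leaving out any 1 array lowered the share higher on replicates 1 and 2, while the counts on both sides rose. With 1 array left out, the remaining array stood for its pair, and the rule was met by 172 to 197 of the 7099 clones. The count of clones higher on replicates 3 and 4 was 35 with all arrays. It rose to 66 when replicate 1 was left out, to 82 when replicate 2 was, to 70 when replicate 3 was and to 56 when replicate 4 was. The count of clones higher on replicates 1 and 2 rose from 98 to 120, 112, 127 and 116 in the same order. The share higher on replicates 1 and 2 fell to between 57.7% (without replicate 2) and 67.4% (without replicate 4).

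Of the 133 clones, 60 met the rule whichever array was left out, 44 of them higher on replicates 1 and 2. Another 32 met it in 3 of these 4 calculations, 39 in 2, and STMED54 and STMJB09 in 1. The arrays of the pairs did not overlap in 131 of the 133 clones, where 47.1% of all 7099 clones had no overlap in either direction. The rule used the same contrast, so nothing is read from that count. The gap between the nearest arrays of the pairs was at least 0.4 in 119 clones and at least 0.8 in 51. The rule favours wide gaps as well and no share over all clones is given, so nothing is read from these counts either.

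A single array carried the difference in a few clones. The 2 clones whose pairs overlapped were STMEN60, which read 1.86 on replicate 1 against 0.01, -0.11 and 0.05 on the others, and STMIF34, which read 1.58 on replicate 3 against -0.23, -0.12 and -0.17. Without replicate 3 the pair difference of STMIF34 was 0.0005, and without replicate 1 that of STMEN60 was 0.0385. In 5 clones the 2 arrays of a pair lay further apart than the pair means did. These were STMEN60, STMIF34, STMID60 (1.76, -0.16, -0.65 and -0.57), STMHR84 (1.69, 0.02, -0.38 and -0.07) and STMED54 (1.37, 0.05, -0.03 and -0.23). In all 5 the array that stood apart was high and had salt in Cy3, replicate 1 in 4 of them and replicate 3 in STMIF34.

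Dye orientation is a contrast that the rule did not use directly, since each pair held both orientations. It was tested with limma over all 7099 clones, with the pair kept as a term, and p-values were adjusted by the Benjamini-Hochberg method. A clone was called at an adjusted p under 0.05. Of all clones, 5.79% were called, and of the 133 clones 21 (15.8%) were. Of these 21, 14 had higher ratios with salt in Cy5 and 7 with salt in Cy3, against 147 (2.07%) and 264 (3.72%) of all clones. With 4 arrays this fit leaves 1 residual degree of freedom per clone, and limma gave every clone the same standard error, 0.164. The test therefore comes down to a minimum dye contrast of 0.488.

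A clone that met the rule through 1 high array also has a large dye contrast, so the 15.8% is not free of the rule. In 17 of the 21 called clones both within-pair differences had the same sign. This held for 66.2% of the 133 clones and 65.3% of all 7099 clones. A large dye contrast favours such clones, and the 17 include STMED54, which had a single high array. Nothing is therefore read from the 17. Among the 60 clones that met the rule whichever array was left out, 2 were called for dye, STMGL17 and STMJI39, but that subset was chosen for a small spread within pairs. The 3 largest dye contrasts were those of STMID60 (0.92, limma adjusted p = 6.09e-06), STMEN60 (0.85, limma adjusted p = 4.17e-05) and STMIF34 (0.82, limma adjusted p = 9.07e-05), all from a single high array. The next 2 were of another kind. STMIZ67 had a contrast of -0.79 (limma adjusted p = 0.000206) and STMJI40 one of -0.76 (limma adjusted p = 0.00038), in which salt in Cy5 gave the higher ratio within both pairs. STMED54 followed, again with a single high array (0.76, limma adjusted p = 0.00038). STMHR84, also with a single high array, was called as well (0.68, limma adjusted p = 0.00242).

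The smallest dye contrasts were those of STMIP80 (0.0005), STMJD93 (0.003) and STMEA73 (-0.0055). STMJD93 read 0.35 and 0.12 on replicates 1 and 2, then -0.75 and -0.52 on the other pair, and STMEA73 read -0.43 and -0.50 against 0.47 and 0.56. In these clones the 2 arrays with salt in Cy3 had nearly the same mean as the 2 arrays with salt in Cy5. Without the pair as a term, limma called none of the 7099 clones for dye at an adjusted p under 0.05. At an unadjusted p under 0.05 that fit called 5.93% of all clones and 0 of the 133, whose pair difference then entered the residual.

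Salt against control, as the mean ratio against 0, was called by limma in 18.8% of the 7099 clones and in 0 of the 133 at an adjusted p under 0.05. At an unadjusted p under 0.05 the shares were 33% of all clones and 14 of the 133. On the means of the 2 pairs, limma called 5.37% of all clones and 0 of the 133 at an adjusted p under 0.05. That fit called 22.9% of all clones and 2 of the 133 at an unadjusted p under 0.05. The authors' deposited table lists a p under 0.05 for 27% of the 7099 clones and for 0 of the 133. The rule limits the mean and requires a wide spread around it, so these counts follow from it and nothing is read from them.

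The clone IDs begin with letters, and clones were grouped here by the first 4 letters (called series) and the first 5 (called blocks). This grouping was read from the IDs alone. Numbers run from 1 to 96 within a block. The share of clones with 4 values that met the rule was 2.81% in series STMI (30 of 1066), 2.64% in STMJ (18 of 683) and 2.25% in STME (23 of 1021). It was 1.60% in both STMC (18 of 1125) and STMH (15 of 940), 1.41% in STMF (1 of 71), 1.30% in STMG (17 of 1307), 1.28% in STMD (11 of 858) and 0 of 28 in STMB. Over all series it was 1.87%. Of the 30 STMI clones 26 were higher on replicates 1 and 2, and of the 17 STMG clones 10 were. The median pair difference of all clones lay between -0.04 and 0.05 in every series and was 0.02 in STMI. The series were compared after seeing the counts and no test was made.

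The 133 clones lay in 89 of 158 blocks, 57 of which held 1 of them. In 10 blocks there were at least 3, with 32 clones in all. The 6 of these blocks that belong to series STMI (STMIJ, STMIR, STMIT, STMIV, STMIX and STMIY) held 19 clones, every one of them higher on replicates 1 and 2. Over all 10 blocks 26 clones were higher on that pair and 6 on the other. The same pair was higher in 26 of the 30 STMI clones and in 98 of the 133. These blocks were picked after the counts were seen, and no test was made. Block STMIX held 4, with pair differences of 1.88 in STMIX82, 1.59 in STMIX33, 1.35 in STMIX42 and 1.25 in STMIX49, while the median over the 50 STMIX clones with 4 values was -0.05. The medians over all clones of the other 9 blocks with at least 3 such clones lay between -0.09 in STMCX and 0.19 in STMJA, with 0.11 in STMIY and 0.07 in STMIT, against 0.0015 over all 7099 clones. STMIX28, just outside the rule, was higher on replicates 3 and 4.

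A single pair of the 133 clones had consecutive IDs, STMJI39 and STMJI40. STMJI40 read -0.98 and -0.36 on replicates 1 and 2, then 0.09 and 0.99 on the other pair, and STMJI39, given above, showed the same order of all 4 arrays. That order, rising from replicate 1 to replicate 4, is not particular to them: STMIZ67, STMCM44 and STMGL17 had it too. Both were also called for dye orientation, as part of 7 called among the 35 clones higher on replicates 3 and 4 (20%). Of all clones, 5.79% were called. The third of the 133 clones in block STMJI, STMJI49, was higher on replicates 1 and 2, by 0.88.

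**Figure D4:**
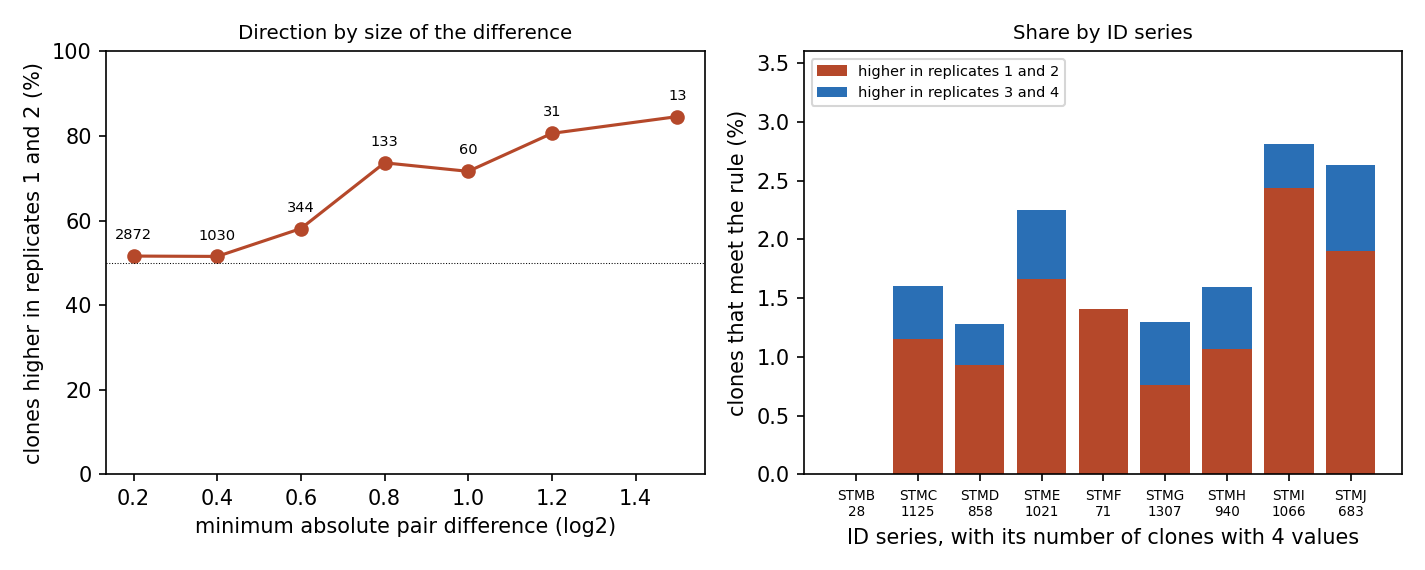
Left, share of clones higher on replicates 1 and 2 (vertical axis, in percent) among those with a mean within 1.5-fold of no change, by the minimum absolute pair difference (horizontal axis, log2), with the number of clones above each point. Right, percent of clones with 4 values that met the rule in each ID series, split by which pair was higher. The share on the left is 51.6% at 0.2 and 73.7% at 0.8, and the point at 1.5 rests on 13 clones. On the right STMI has the highest bar, 2.81%.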

How the data were processed

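The authors deposited a table of 1 log ratio per clone and array, read here as log2 values. The sources used here do not give background correction, normalization, spot filter, base or numerator. Base 2 is assumed, so folds rest on it. A second table, whose header names a one-sample test, holds the authors' p-value for each clone. Spot signals were not used here, so the signal behind a ratio is unknown. Precision is limited by the number of arrays. The replicates are biological per the labels, which do not tie them to the 2 sets of plants.

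Ratios were used as deposited, and the rule was applied to clones with 4 values (Python 3.11.15, pandas 2.3.3). The dye orientation and the mean ratio were tested with limma 3.58.1 in R 4.3.3 (lmFit and eBayes, two-sided, Benjamini-Hochberg adjustment over 7099 clones). The dye fit was also run on simulated data, with independent normal noise of the same spread for every clone. That setting holds no clones with a single high array, so it cannot show how the fit treats them. The rule, the classes and the tests were chosen with earlier results of these data known. Named clones were the 5 largest differences of each class, the 3 nearest each limit on both sides, the 3 largest and 3 smallest dye contrasts, the 3 largest differences within a pair and the 5 members with the smallest dye p among those called. Others were picked after their values were seen.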

Additional observations from a re-analysis of the deposited data

Results flagged for a closer look

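Of 35 named clones, 2 had a single array apart from the other 3 by Dixon's limit for 4 values, where chance passes about 1 in 20. Both were named for a large dye contrast and a large difference within a pair. The 2 of 35 can therefore not be set against the chance rate. In STMEN60 replicate 1 stood apart, with a gap of 0.921 of the whole range. In STMIF34 replicate 3 stood apart, with a gap of 0.938 of the range. These were also the only 2 of the 133 clones that passed the limit, against 264 of all 7099 clones with 4 values (3.72%). A difference between pairs of arrays leaves less room for a single array to stand apart, so the 2 shares are not comparable.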

How the results depend on the processing

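The count of 133 clones (98 higher on replicates 1 and 2, 35 on replicates 3 and 4, 121 with opposite signs) stayed at 133 with each array centred on its median, 128 of them the same clones, and was 137 with arrays scaled to 1 SD, 126 of them the same. It depended on the limits by construction: a minimum difference of 0.6 gave 344 (200, 144 and 270 in the same order) and one of 1 gave 60 (43, 17 and 56). Without a limit on the mean there were 204, with 78 higher on replicates 3 and 4, and with a limit of 0.3 there were 84 (65 and 19). Every array of one pair at least 0.4 above the other gave 374 (205, 169 and 282). Values on at least 3 arrays gave 180, with 53 higher on replicates 3 and 4. Leaving out each replicate gave 172 to 197 (112 to 127, 56 to 82 and 152 to 176). Clones that met the rule in all 4 of these calculations, a setting chosen after seeing the data, numbered 60 (44, 16 and 57). With every sign turned, 35 were higher on replicates 1 and 2 and 98 on replicates 3 and 4. The dye call on 21 of the 133 clones was 23 to 28 with centring, scaling or a robust variance model. No share over all clones is given for those settings, so nothing is read from the 23 to 28. At an unadjusted p under 0.05 the dye call was on 34 (25.6%), against 17.7% of all clones. It was 0 without the pair term (no replicate block), and 2 among the 60 clones. The salt call on 0 of the 133 was also 0 on pair means and with the pair as a random block. It stayed 0 with at least 3 values and in the authors' deposited table. On pair means it was 2 at an unadjusted p under 0.05, against 22.9% of all clones. With single replicates left out it was 2 to 7 (7 without replicate 3). No share over all clones is given for those settings, so nothing is read from the 2 to 7. The pair differences of the 35 named clones kept their sign with centring, scaling and each replicate left out, except STMIF34 without replicate 3 (0.0005 against -0.88). Sizes changed more: without replicate 1, STMEN60 fell from 0.965 to 0.0385 and STMID60 from 1.4135 to 0.456. Replicate numbers pair no groups here, as there is 1 group of arrays, in whose ratios salt and control RNA are already paired. The settings with the pair as a term, as a random block and as averaged values are those given above. Spot signals were not used here, so depth was not examined.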
